A study of Homo sapiens with 3 samples.

Results

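CpG-dense stretches of the genome are mostly free of DNA methylation, and the windows described here were the exceptions. The autosomes were cut into fixed windows of 1 kb, and CpGs covered by 10 or more reads in each of 3 libraries were counted. Members were chosen by CpG number and level: at least 40 such CpGs, at a methylation level of at least 60% averaged over the CpGs and then over the libraries. The rule found 1213 members among 10236 CpG-dense windows and among 318599 autosomal windows with a CpG. The members held 64703 of 2204675 autosomal CpGs, with a median of 49 CpGs and at most 169 in a window. Of the other CpG-dense windows, 7693 lay under 20% and 1330 from 20% to under 60%.

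The DNA came from Hep3B, a human hepatocellular carcinoma cell line. Parental Hep3B gave 1 library, and 2 lines of SOX4-/- cells, derived from Hep3B by CRISPR/Cas9 and kept by the study in medium with puromycin, gave 1 each. The lines are called KO1 and KO2 by the numbers the submitters gave them. SOX4 is a high-mobility-group transcription factor, and the study asked how its loss goes with DNA methylation. Puromycin is stated for the knockout cells, so selection, the making of each line and the loss of SOX4 cannot be told apart. Methylation values do not show whether SOX4 was edited, and the loss of SOX4 was taken from the labels. The parental group has 1 library, and an exact permutation test of 1 library against 2 cannot give a p below 0.333. Everything below compares libraries, and both knockout lines are compared with the same parental library.

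In most vertebrate tissues, CpGs in the bulk of the genome are methylated, and methylated CpGs are lost over evolutionary time through deamination. CpG islands are the stretches that stayed rich in CpGs. They surround the starts of most widely used genes, and they are usually unmethylated. Known classes of methylated CpG islands include the promoters of germline genes, which are silenced in somatic cells, clustered protocadherin genes, islands inside gene bodies and near chromosome ends, imprinted regions, and promoters that gain methylation in tumours. DNA methylation is kept through cell division by DNMT1 and set by DNMT3A and DNMT3B, and in promoters it goes with a silent gene.

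The bases before the starts of 10 genes show what such a window holds. The genes were chosen after their values were seen, as examples of germline genes, of a gene silenced in liver cancer, of a homeobox, a zinc finger and a histone gene, and of starts where the libraries differed. Sequences are from the RefSeq promoter table (GRCh38.p14) and cover the 250 bases before the start, 5′ to 3′ in the direction of the gene, with each CpG in capitals. Positions are those of the files (GRCh37), where the spacing of the CpGs matched, with the strand of the gene.
ASZ1: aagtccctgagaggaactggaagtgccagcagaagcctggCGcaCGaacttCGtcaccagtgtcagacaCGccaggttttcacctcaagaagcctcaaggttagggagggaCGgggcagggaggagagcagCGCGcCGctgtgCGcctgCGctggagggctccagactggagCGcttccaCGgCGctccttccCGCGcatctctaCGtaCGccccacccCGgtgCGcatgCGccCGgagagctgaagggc
DAZL: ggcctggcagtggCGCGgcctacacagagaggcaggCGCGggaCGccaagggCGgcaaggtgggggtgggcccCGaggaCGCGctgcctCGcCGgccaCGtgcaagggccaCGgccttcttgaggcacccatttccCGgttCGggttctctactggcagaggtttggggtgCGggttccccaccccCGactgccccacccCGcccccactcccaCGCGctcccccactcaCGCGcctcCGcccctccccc
SMC1B: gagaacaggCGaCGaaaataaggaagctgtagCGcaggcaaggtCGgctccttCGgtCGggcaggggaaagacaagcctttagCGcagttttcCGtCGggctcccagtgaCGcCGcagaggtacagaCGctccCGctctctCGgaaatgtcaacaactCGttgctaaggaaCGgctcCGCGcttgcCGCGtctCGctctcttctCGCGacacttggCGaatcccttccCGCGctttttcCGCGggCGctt
GSTP1: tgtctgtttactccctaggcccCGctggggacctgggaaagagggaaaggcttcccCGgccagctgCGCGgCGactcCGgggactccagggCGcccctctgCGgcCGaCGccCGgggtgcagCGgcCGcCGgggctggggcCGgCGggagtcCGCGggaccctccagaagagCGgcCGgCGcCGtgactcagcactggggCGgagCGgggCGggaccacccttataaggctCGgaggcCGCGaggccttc
HOXA9: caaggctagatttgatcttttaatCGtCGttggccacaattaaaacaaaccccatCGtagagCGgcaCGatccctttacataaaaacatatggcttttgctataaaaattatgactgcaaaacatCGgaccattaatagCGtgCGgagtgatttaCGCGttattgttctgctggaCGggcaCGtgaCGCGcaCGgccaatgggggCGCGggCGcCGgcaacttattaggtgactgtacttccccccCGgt
ZNF154: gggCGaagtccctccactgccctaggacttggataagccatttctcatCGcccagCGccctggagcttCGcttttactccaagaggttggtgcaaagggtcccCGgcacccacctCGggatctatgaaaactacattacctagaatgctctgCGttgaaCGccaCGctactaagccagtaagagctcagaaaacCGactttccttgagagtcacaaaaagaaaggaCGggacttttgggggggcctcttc
H3C8: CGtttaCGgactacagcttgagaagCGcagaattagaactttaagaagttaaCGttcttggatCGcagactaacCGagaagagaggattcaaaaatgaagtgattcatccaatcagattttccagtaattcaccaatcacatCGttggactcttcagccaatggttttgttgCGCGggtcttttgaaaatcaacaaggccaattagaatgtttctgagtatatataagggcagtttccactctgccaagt
OXCT1: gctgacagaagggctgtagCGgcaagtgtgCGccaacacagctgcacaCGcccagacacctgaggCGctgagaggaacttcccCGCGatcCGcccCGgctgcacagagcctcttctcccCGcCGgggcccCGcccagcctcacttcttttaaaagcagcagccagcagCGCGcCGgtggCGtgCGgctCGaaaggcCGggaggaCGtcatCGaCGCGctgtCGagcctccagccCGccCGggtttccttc
MARCHF1: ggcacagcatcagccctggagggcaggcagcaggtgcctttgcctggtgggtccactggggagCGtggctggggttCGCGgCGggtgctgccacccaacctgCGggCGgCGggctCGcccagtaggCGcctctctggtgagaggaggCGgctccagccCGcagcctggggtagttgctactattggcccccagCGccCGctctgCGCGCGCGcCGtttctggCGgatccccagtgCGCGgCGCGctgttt
LOC105374505: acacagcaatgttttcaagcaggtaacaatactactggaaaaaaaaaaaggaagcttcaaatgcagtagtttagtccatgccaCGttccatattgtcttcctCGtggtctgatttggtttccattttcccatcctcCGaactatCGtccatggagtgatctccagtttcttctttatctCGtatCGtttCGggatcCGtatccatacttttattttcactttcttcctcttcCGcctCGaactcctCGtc

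ASZ1, a germ cell protein of the pathway that silences transposons, had its 250 bases at chr7:117067548-117067797 on the minus strand. All 21 CpGs printed were measured, at means of 96.9% in the parental library, 96.3% in KO1 and 96.0% in KO2. No CpG there was under 81.2% in any library. ZNF154, a Krüppel-associated box zinc finger gene, was as high: chr19:58220573-58220822, minus strand, with 11 CpGs at 97.2%, 98.2% and 97.1% in the same order. H3C8, a replication-dependent histone H3 gene, lay at chr6:26271642-26271891, minus strand, with 9 CpGs at 96.5%, 97.2% and 94.6%. These 3 starts carried near-complete methylation in every library.

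DAZL encodes an RNA-binding protein of germ cells. Its 250 bases lay at chr3:16646298-16646547 on the minus strand. Of 23 CpGs, 8 reached 10 reads in all libraries, with means of 55.6%, 38.0% and 43.4% in parental, KO1 and KO2, and with single CpGs from 4.35% to 100% in the parental library. GSTP1 encodes a glutathione S-transferase whose promoter is a known site of tumour methylation. At chr11:67351033-67351282, plus strand, 9 of its 28 CpGs were measured, at 97.5%, 89.4% and 94.2%. HOXA9, a homeobox gene of the HOXA cluster, lay at chr7:27205157-27205406, minus strand, and its 20 CpGs had means of 91.4%, 86.9% and 88.2%.

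The remaining 4 starts were picked as examples of differences between the libraries. Other member starts differed as much, such as that of the homeobox gene GBX2, where 16 CpGs of its 300-base promoter averaged 54.5% in parental cells, 15.4% in KO1 and 36.7% in KO2, while its whole window stood at 66.1%, 62.1% and 65.4%. OXCT1 encodes the mitochondrial enzyme that activates ketone bodies for use as fuel. At chr5:41870528-41870777, minus strand, 16 of its 25 CpGs were measured, at 73.5% in the parental library, 13.2% in KO1 and 49.8% in KO2. The highest CpG of KO1 there, 28.0%, was below the lowest CpG of the parental library, 36.4%. A CpG was called at a Benjamini-Hochberg adjusted p under 0.05 by the Fisher exact test, if it also differed by 25 points or more. Of the 16 CpGs, 12 were called lower in KO1 and 1 in KO2, at depths of 10 to 26 reads per CpG.

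SMC1B encodes a meiotic subunit of cohesin. All 29 CpGs were measured at chr22:45809481-45809730, minus strand, at means of 71.1%, 36.7% and 58.1%, with 21 called lower in KO1 and 2 in KO2. MARCHF1 encodes a membrane ubiquitin ligase. Its 23 CpGs at chr4:165304670-165304919, minus strand, averaged 91.6%, 62.1% and 79.4%, with 8 called lower in KO1 and 1 in KO2. LOC105374505, an uncharacterised locus, moved the other way: at chr4:16362238-16362487, plus strand, 11 CpGs averaged 69.7%, 88.7% and 79.4%, and 5 were called higher in KO1. In all 4 of these starts KO2 lay between the parental library and KO1.

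Member levels were high in every library, by the rule. The mean over the 1213 members was 86.5% in the parental library, 81.9% in KO1 and 83.9% in KO2. The knockouts together averaged 82.9% ± 1.39 (SD, n = 2). The median member stood at 89.9%, 86.2% and 87.4% in the same order. The lowest member was at 55.3%, 46.5% and 56.0%, and the highest at 98.5%, 99.0% and 98.5%. Members were not spread evenly over the range above 60%: 538 of them (44.4%) lay at 90% or more, 270 from 80% to under 90%, 201 from 70% to under 80% and 204 from 60% to under 70%. CpG-dense windows thus had a large mass near 0 and a smaller second mass near the top.

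**Figure D1:**
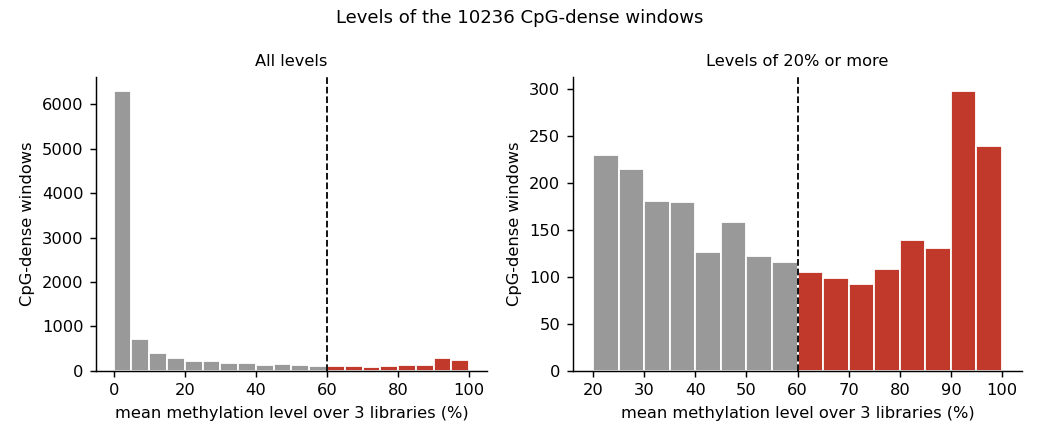
Number of CpG-dense windows (vertical axes) by mean methylation level over the 3 libraries in bins of 5 points (horizontal axes), for all 10236 windows on the left and for those of 20% or more on the right. Red bars right of the dashed line at 60% are the 1213 members; the bins from 90% hold 298 and 240 windows, and the lowest bin holds 6299.

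The rule's thresholds cut through a continuum. Just inside the level threshold lay the window at HOXD12 (60.03%), a window 1.76 kb from the start of FOXD3 (60.10%) and 1 at 1.25 kb from NPR3 (60.15%). Just outside were windows at 59.90%, 59.92% and 59.94%. There were 105 members from 60% to under 65%, and 116 dense windows from 55% to under 60%. On the side of CpG number, 532 windows of 35 to 39 CpGs at 60% or more had a median level of 90.3%, and the 367 members of 40 to 44 CpGs had a median of 88.9%.

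Inside the members most CpGs were highly methylated, and the profile of single CpGs differed between libraries. CpGs of 80% or more made up 79.7% of member CpGs in the parental library, 72.3% in KO1 and 74.3% in KO2. Those under 20% made up 1.90%, 4.12% and 2.5%. The spread over the CpGs of a window had a median SD of 14.2 points in parental, 18.0 in KO1 and 15.5 in KO2, against 8.38, 11.1 and 9.51 in the 47047 windows of 5 to 39 CpGs at 60% or more. On means over the libraries, 724 members (59.7%) held no CpG under 20% and 329 held no CpG under 60%. Intermediate CpGs, from 20% to 80%, filled at least 50% of the CpGs in 188 members, and 89 members held 10% or more of CpGs under 20%. In 509 members (42.0%), 90% or more of the CpGs were at 80% or more. Members thus ranged from evenly methylated windows to windows that mixed high and low CpGs.

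The members were measured at moderate depth. The median member had 35.9 reads per CpG in the parental library, 33.9 in KO1 and 45.7 in KO2, and 1065 members had a mean of 20 or more in every library. The 95% exact Clopper-Pearson interval of the read-weighted level of a member had a median width of 2.57, 2.98 and 2.46 points, and it covers counting error only. Of the members, 7 stood apart in depth, with over 500 reads per CpG in at least 1 library. The deepest, chr19:37784001-37785000 and chr1:228756001-228757000, held 4630 and 3986 parental reads per CpG. The latter window had nearly equal levels of 66.3%, 66.2% and 66.0%.

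Reads came unequally from the strands. Reverse-strand reads were 73.3% of member reads in the parental library, 73.7% in KO1 and 73.3% in KO2, beside parental shares of 79.3% in CpG-dense windows from 20% to under 60%, 92.1% in those under 20% and 82.7% in the windows of 5 to 39 CpGs at 60% or more. Where both strands had 10 reads, parental levels averaged 85.1% on the forward and 86.2% on the reverse strand. KO1 had 79.7% and 80.6%, and KO2 had 82.2% and 83.1%. The lower levels of the knockout lines were thus present on each strand.

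Members were found on every autosome, but at unequal shares of the CpG-dense windows. The share ran from 3.91% on chromosome 3, with 16 of 409, to 21.1% on chromosome 21, with 28 of 133. Chromosome 22 had 19.7%, chromosome 5 had 19% and chromosome 13 had 18.0%. Members lay near the ends of the covered part of a chromosome more often than low windows: 383 members (31.6%) were within 2 Mb of the first or last covered CpG, against 638 (8.29%) of the CpG-dense windows under 20% and 211 (15.9%) of those from 20% to under 60%. Within 5 Mb the shares were 45.8%, 15.6% and 25.1%. These shares are descriptions, since neighbouring windows are not independent.

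The densest group of members was the clustered protocadherin region of chromosome 5. Protocadherins of this cluster are cell adhesion proteins whose many alternative first exons are chosen singly in neurons. From chr5:140167001 to 140822000, 53 of 58 CpG-dense windows were members, with 3623 CpGs. Over these windows the mean was 92.0% in parental cells, 87.3% in KO1 and 88.8% in KO2. The lowest window stood at 75.2%, 59.0% and 64.7%, the median window at 94.5%, 91.2% and 91.4%, and the highest at 98.0%, 98.4% and 97.8%. KO1 was lower than parental in 50 of the 53 windows and KO2 in 46, where 78.8% and 76.1% of all members were. The mean difference was -4.74 ± 4.46 points in KO1 and -3.23 ± 3.12 in KO2 (SD over windows). Starts placed in this region or within 50 kb of it included those of PCDHAC1, PCDHAC2, PCDHB4, PCDHGB1 and PCDHGC3. The members of the region themselves held no placed start. Many promoters could not be placed, so this does not show that these members lie away from gene starts. A window 1.41 kb from the start of PCDHGB6, chr5:140789001-140790000, was among the 5 members with the highest mean level, at 96.7%, 98.4% and 97.6% over 61 CpGs.

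Several other dense groups lay toward chromosome ends. On 19p, 18 of 32 dense windows were members from 324001 to 920000, at 91.5%, 90.4% and 91.5%. On 4p, 17 of 31 were members from 206001 to 986000, at 94.0%, 92.6% and 93.1%, and on 7p 17 of 29 from 206001 to 936000, at 92.7%, 90.3% and 91.3%. In the groups on 19p, 4p and 7p the libraries were within 3 points of each other, closer than in the protocadherin region. Other groups toward ends differed by more. One on chromosome 13, from 114067001 to 114966000, was at 86.0%, 78.9% and 83.9%. One on chromosome 10, from 134165001 to 134981000, was at 82.1%, 73.4% and 78.2%. A group on chromosome 22, from 20229001 to 20761000, lay inside the chromosome, with 13 of 20 dense windows as members at 91.2%, 89.7% and 89.9%.

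Most members stood alone: 997 had no member next to them, and 75 runs held 2. The longest run had 9 adjacent members, chr22:20708001-20717000, with 917 CpGs at means of 90.8%, 89.1% and 89.0%. It held 3 of the 5 members with the most CpGs, with 169, 139 and 113 in a single kilobase, and no start was placed within 31.4 kb of it. The second run had 6 members, chr16:1785001-1791000, with 470 CpGs at 95.9%, 95.7% and 95.9%. Between the libraries these runs differed little: in the 9 windows on chromosome 22, 0 to 3 CpGs per window were called lower in KO1.

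The members sat in methylated surroundings, unlike the low CpG-dense windows. In the parental library, windows 1 kb to the left and right of a member averaged 73.8% and 76.9%, and at 5 kb they averaged 67.2% and 63.2%. Around CpG-dense windows under 20%, the windows at 1 kb averaged 16% and 15.6%, rising to 53.4% and 54.6% at 5 kb. Of 395 members with both neighbouring windows measured, 234 (59.2%) had both at 60% or more, 43 had 1 at 60% or more with the other under 20%, and 3 had both under 20%. High levels thus usually ran past the window, and isolated methylated windows in a low stretch were rare.

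**Figure D2:**
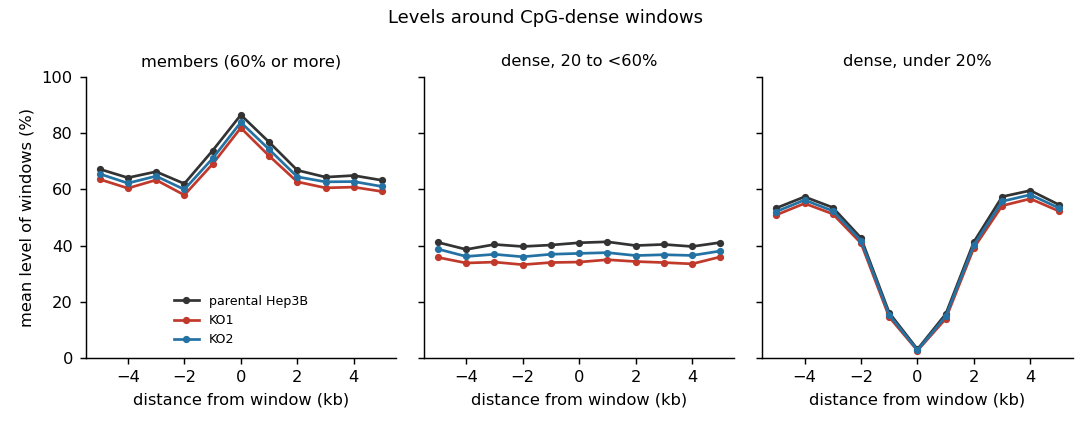
Mean methylation level (vertical axis, %) of 1 kb windows of at least 5 CpGs by distance from the CpG-dense window (horizontal axis, kb), in the 3 libraries, for members and both other classes of CpG-dense windows. Members form a peak of 86.5% in the parental library at distance 0, where the windows under 20% form a trough of 3.05%; the KO1 curve lies lowest around members.

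Few members held a gene start that could be placed. RefSeq promoters could be placed in the files' coordinates for 11619 genes, and on the autosomes with placed starts 114 of 1164 members (9.79%) held one, against 23.8% of the CpG-dense windows from 20% to under 60% and 56.8% of those under 20%. The median distance from a member to the nearest placed start was 28.2 kb, and 799 members (68.6%) were over 10 kb away. Starts poor in CpGs could not be placed, and a single place was found for 13908 of the 18977 promoters with 10 or more CGs. The shares that held a start are thus lower bounds for gene starts. The distances, and the share over 10 kb away, are upper bounds. Members with a start averaged 85.7% in the parental library, 79.4% in KO1 and 82.5% in KO2, and the 1050 without a start 86.6%, 82.2% and 84.1%. Of 5569 placed genes whose start lay in a CpG-dense window, 128 (2.30%) had it in a member.

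The starts themselves were methylated, not just the rest of the window. Over the 300 bases around the start, 109 of 129 promoters at members were at 60% or more in all 3 libraries. Their medians were 90.6% in the parental library, 85.4% in KO1 and 88.3% in KO2. The exception at the other extreme was ULBP1, a stress ligand of natural killer cells: 4 measured CpGs of its promoter were at 0 in every library, while its window averaged 81.3%, 64.6% and 76.2%. At ULBP1 the methylated CpGs lay in the rest of the window, past the start.

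Germline genes were the list with the largest share of members. Of the 45 genes listed, 8 had their start in a CpG-dense window and 5 of these (62.5%) were members, beside 2.30% of all placed genes. Besides ASZ1 and DAZL these were MEI1, needed for meiotic recombination, FKBP6, a protein of spermatogenesis, and MAEL, a component of transposon silencing. The window at ASZ1 was at 97.3% in the parental library, 95.7% in KO1 and 96.9% in KO2, and that at MEI1 at 95.1%, 92.2% and 92.7%. DAZL had 86.2%, 81.1% and 80.7%, FKBP6 83.4%, 78.0% and 81.4%, and MAEL 76.6%, 63.3% and 67.5%. In all 5 both knockout lines were lower than the parental library, with differences from -13.3 to -0.446 points, and the parental library was the highest in 69.6% of all members. A further 14 germline genes had their start in a window of 5 to 39 CpGs at 60% or more, such as SYCP3 of the synaptonemal complex (96.0%, 95.9% and 97.6%) and STK31 (94.2%, 94.2% and 94.6%). Over the 26 listed genes with a measured window the median level was 80.1% in parental, 73.8% in KO1 and 74.5% in KO2, against 1.04%, 0.918% and 0.937% over all placed genes.

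Genes that the field names as silenced by methylation in hepatocellular carcinoma were mostly not members. Of 13 with a start in a CpG-dense window, 1 was (7.69%), beside 2.30% of all placed genes, so the share rests on 1 gene. This was GSTP1, at 84.6% in the parental library, 70.1% in KO1 and 74.1% in KO2 over 46 CpGs. The median over the 23 listed genes with a measured window was 1.52%, 2.34% and 1.76%. Of 16 housekeeping genes with a start in a CpG-dense window, 0 were members, too few genes to tell this from the 2.30% of all placed genes. Their list medians were 0.380%, 0.492% and 0.418% over 20 genes.

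Developmental transcription factors contributed 3 members of 28 genes in CpG-dense windows (10.7%). These were HOXA9 (88.7%, 84.3% and 90.8%), TBX20, a T-box factor of the heart (71.5%, 57.2% and 63.0%), and HOXD12 of the HOXD cluster (67.8%, 51.9% and 60.4%). At HOXA9 KO2 was above the parental library, while at TBX20 and HOXD12 both lines were below it. Further groups were formed after the names were seen. Of 23 replication-dependent histone genes in CpG-dense windows, 5 (21.7%) had their start in a member: H3C6, H3C8, H2AC13, H2AC14 and H2BC13. This counts genes, and H2AC13 and H2BC13 shared the window chr6:27775001-27776000. Of zinc finger genes, 4 of 197 (2.03%) were members, close to the 2.30% of all genes: ZNF154, ZNF232, ZNF331 and ZNF565.

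Some member starts outside the lists deserve their values, and they too were chosen after the values were seen. KCNJ3, a potassium channel subunit, was at 97.5%, 97.5% and 96.9%, and REC8, the meiotic cohesin kleisin, at 94.2%, 95.4% and 95%. EDNRB, the endothelin receptor type B, had 2 member windows, 1 at 96.4%, 94.9% and 94.0% and 1 at 78.7%, 68.0% and 73.4%. FRZB, a secreted inhibitor of Wnt signalling, was at 89.6%, 71.4% and 82.7%. The window at OXCT1 was at 86.5%, 63.5% and 74.3% over 73 CpGs, with 21 CpGs called lower in KO1, and the window shared by SMC1B and RIBC2 at 75.7%, 50.8% and 65% over 55 CpGs, with 24 called lower. REC8 and SMC1B, both meiotic cohesin subunits, thus had unlike values.

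**Figure D3:**
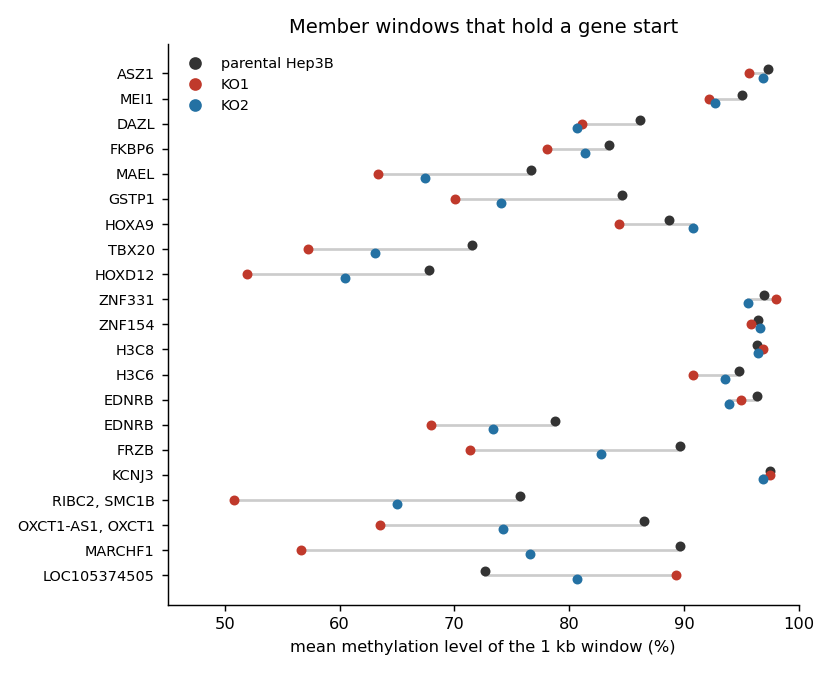
Mean methylation level (horizontal axis, %) of member windows that hold a gene start, named on the vertical axis, with 1 point for each library and a grey bar from the lowest to the highest. Levels at H3C8, KCNJ3 and ZNF154 nearly coincide, while KO1 lies far below the parental library at SMC1B, OXCT1 and MARCHF1 and above it at LOC105374505.

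The sequences at the member starts also differed from those at unmethylated starts. Over 300 bases, 129 promoters at members had a median GC content of 64.3% and an observed to expected CpG ratio of 0.815, against 66.7% and 0.882 at starts in CpG-dense windows under 20%. Their median number of CGs was 23 against 28, and every motif below contains a CG. The GC box GGGCGGGG, searched on both strands, was found in 14.7% of member promoters, 37.4% of those in the low windows and 35.6% of all placed promoters. The ETS motif CCGGAAGT was found in 3.10%, 11% and 8.70%, and the CRE TGACGTCA in 2.33%, 3.96% and 3.36%. In members these were only 4 and 3 promoters. The E-box CACGTG was found in 14%, 10.8% and 10.4%, and the E2F motif GGCGGGAA in 7.75%, 6.07% and 5.34%. The NRF1 palindrome was found in 1.55% (2 member promoters), 3.41% and 2.53%. The GC box and the E2F motif share letters and can overlap, and a match is a description of the sequence. Promoters of a gene with several starts share bases, so they are not independent.

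KO1 and KO2 were lower than the parental library in most members, by small amounts. KO1 was lower in 956 members (78.8%), with a mean difference of -4.61 points and a median of -2.79. KO2 was lower in 923 (76.1%), with a mean of -2.64 and a median of -1.58. The difference between the lines averaged -1.97 points, nearly as large as that of KO2 from the parental library. The parental library was the highest of the 3 in 844 members (69.6%), and KO2 lay between the others in 779 (64.2%). Over all 111495 autosomal windows of at least 5 CpGs, KO1 was lower in 68.6% and KO2 in 64.8%. Their mean differences of -4.71 and -2.46 points were close to those of members, but these windows include many at low levels. In the windows of 5 to 39 CpGs at 60% or more, KO1 was lower in 65.2% and KO2 in 62.6%. Their mean differences were -3.75 and -1.93 points, so members were lower more often and by more than this class. These windows had a median of 7 CpGs and a median level of 90.2%, against 49 and 87.6% in members. What part CpG number and level had in this was not tested. In CpG-dense windows from 20% to under 60%, KO1 was lower in 86.9% and KO2 in 81.4%, with mean differences of -6.87 and -3.79 points. In those under 20% the shares were 58.0% and 57.0%, and the means -0.480 and -0.331 points.

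Large differences were few in members, and how their share compares depends on the class of windows. At 25 points, 6 members were lower and 1 higher in KO1 than in the parental library, 0.495% and 0.0824% of members, where 4.16% and 0.42% of all windows were. In KO2, 0 members were lower and 0 higher, against 0.63% and 0.0906% of all windows. In both lines 0 were lower and 0 higher, against 0.554% and 0.0682%, and between the lines 0 were lower and 0 higher, against 0.778% and 0.117%. At 10 points, 217 members (17.9%) were lower and 6 (0.495%) higher in KO1, beside 21.5% and 2.27% of all windows. In KO2, 60 (4.95%) were lower and 4 (0.330%) higher, beside 10.3% and 1.46%, and 58 (4.78%) were lower in both lines, beside 9.08%. The windows of 5 to 39 CpGs at 60% or more had 3.11% lower in KO1 by 25 points and 17.6% by 10 points, the latter close to the members. The other CpG-dense windows had few large differences as well: by 25 points in KO1, 0.752% of those from 20% to under 60% were lower and 0.0130% of those under 20%, with 0 in KO2 in either class. A member is a mean over at least 40 CpGs and most windows hold far fewer, and the part of this in the counts was not tested. Members were also chosen at 60% or more, which leaves little room for a large rise.

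Single CpGs, which do not depend on the size of a window, were called lower in members at shares close to those of all CpGs. They were called higher at smaller shares, a gap that was not tested. The rule shapes both comparisons. In the parental library 79.7% of member CpGs were at 80% or more, where a rise of 25 points is not possible. In CpG-dense windows under 20%, 95.9% of CpGs were under 20% in the parental library, where a fall of 25 points is not possible. Of 64703 member CpGs, 3152 (4.87%) were lower and 232 (0.359%) higher in KO1 than in parental cells by this Fisher exact test, beside 4.46% and 0.599% of all CpGs tested. In KO2, 502 (0.776%) were lower and 32 (0.0495%) higher, beside 0.713% and 0.0831%. In both lines, 393 (0.607%) were lower and 23 (0.0355%) higher, beside 0.6% and 0.0581%. KO1 against KO2 gave 707 (1.09%) lower and 86 (0.133%) higher CpGs, beside 1.07% and 0.184%. These calls compare libraries and not conditions. A CpG called lower in KO1 was held by 630 of the 1213 members, and the 91 members with 10 or more such CpGs held 1246 of the 3152.

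The size of the difference went with the level of the window. Members of 90% or more differed from the parental library by a mean of -0.835 points in KO1 and -0.425 in KO2. From 80% to under 90% the means were -5.10 and -2.98, from 70% to under 80% -8.11 and -4.46, and from 60% to under 70% -10.5 and -6.22. In the lowest band the parental level was 70.4%, KO1 was at 59.9% and KO2 at 64.1%, and 107 of 204 windows were lower in KO1 by 10 points. The level that forms the bands includes all 3 libraries, and a window near 100% in its mean leaves little room for a difference, so the gradient is a description. The 538 most methylated members were thus nearly the same in the 3 libraries, and most of the shift of the mean was in the others.

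**Figure D4:**
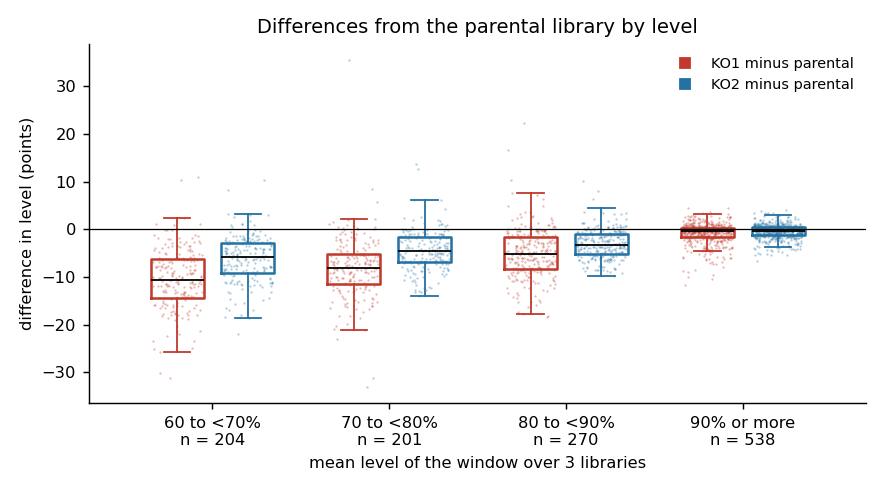
Difference in methylation level from the parental library (vertical axis, points) of members by band of mean level (horizontal axis), for KO1 in red and KO2 in blue. Points are windows, boxes give the quartiles with the median in black and whiskers reach 1.5 times the interquartile range; medians are below 0 in every band and nearest to 0 in the 538 windows of 90% or more.

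The difference also went with the methylation of the wider surroundings. For 1042 members, the parental level of the windows of 5 to 39 CpGs within 50 kb could be averaged over at least 5 windows. Where these surroundings were under 40%, the 140 members averaged 79.5% in the parental library, 71.2% in KO1 and 74.8% in KO2, a difference of -8.27 ± 5.69 points in KO1 and -4.73 ± 4.09 in KO2 (SD over windows). From 40% to under 60% the 313 members differed by -5.55 and -3.26, and from 60% to under 80% the 394 members by -3.22 and -1.82. Where the surroundings were at 80% or more, the 195 members differed by -1.33 ± 4.43 and -0.740 ± 2.73. Members in poorly methylated surroundings were thus lower in the knockout lines by more points than members in highly methylated surroundings.

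Level and surroundings are linked, so the same means were taken within members under 90%. There KO1 differed by -9.28 ± 5.37 points in surroundings under 40% (121 members) and -7.24 ± 6.36 from 40% to under 60% (231). It differed by -6.66 ± 6.02 from 60% to under 80% (161) and -4.47 ± 7.85 at 80% or more (47, SD over windows). KO2 differed by -5.32, -4.34, -3.79 and -2.37 points in the same order. In members of 90% or more, KO1 differed by -1.78, -0.800, -0.847 and -0.333 points. The order of the means held in members under 90% for both lines, while members of 90% or more differed little in any surroundings. Members under 90% still ranged in level from 60%, and the difference went with level there too, so level and surroundings were not separated. The surroundings themselves were lower in the knockout lines too: in KO1 their mean difference was -6.44 points where they were under 40% and -2.37 where they were at 80% or more.

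**Figure D5:**
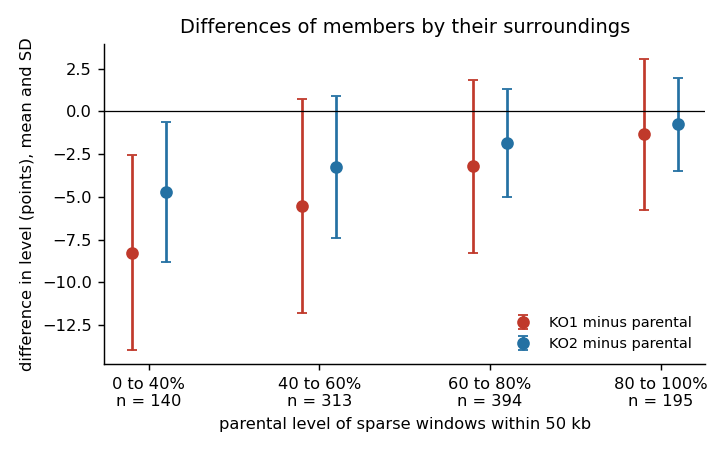
Difference in methylation level of members from the parental library (vertical axis, points) by the parental level of windows of 5 to 39 CpGs within 50 kb (horizontal axis). Points are means over 140, 313, 394 and 195 members, bars are the SD over windows, and means run from -8.27 to -1.33 in KO1 and from -4.73 to -0.740 in KO2.

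Distance from the first or last covered CpG of a chromosome, which need not be its end, showed a smaller gradient. The 383 members within 2 Mb of either differed by -3.23 ± 5.62 points in KO1 and -1.91 ± 3.31 in KO2. The 274 members from 2 to 10 Mb differed by -4.11 and -2.22, and the 556 members farther in by -5.80 ± 6.21 and -3.34 ± 4.06. At 90% or more were 52.7% of members within 2 Mb, 44.5% of those from 2 to 10 Mb and 38.5% of the rest, so level moved together with this distance.

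The members that fell most in both lines lay outside placed starts. Ranked by whichever line changed less, the largest fall was at chr14:104897001-104898000, where 45 CpGs averaged 79.4% in the parental library, 59.2% in KO1 and 60.9% in KO2. At chr12:11653001-11654000 the levels were 77.6%, 46.5% and 59.3% over 60 CpGs, with 28 CpGs called lower in KO1. A window at chr2:177036001-177037000, 5.86 kb from the start of HAGLR, an antisense transcript of the HOXD cluster, was at 80.3%, 58.4% and 62.5%. At chr7:461001-462000 the levels were 80.1%, 55% and 63.3% with 23 and 14 CpGs called lower in KO1 and KO2. At chr1:2980001-2981000, 3.29 kb from the start of PRDM16-DT, they were 77.9%, 47.8% and 61.1%. KO1 was under 60% in all 5 of these windows, and the mean used by the rule includes the parental level. In all 5 the lines were nearer to each other than either was to the parental library, which the ranking favours, and in chr14:104897001-104898000 and chr2:177036001-177037000 they were within 5 points of each other.

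Rises were few. At chr1:871001-872000, 42 CpGs averaged 57.6% in the parental library, 93.0% in KO1 and 70.3% in KO2, and 23 and 8 CpGs were called higher. This was the single member higher by 25 points, and read-weighted its parental level was 50.2% (48.0% to 52.4%), against 93.8% (92.3% to 95.1%) in KO1 and 68.9% (66.8% to 70.9%) in KO2. The window at LOC105374505 was at 72.6%, 89.3% and 80.7%, and chr13:113723001-113724000, with 44 CpGs, at 71.1%, 93.5% and 77.5%. At 2 other windows both lines rose by like amounts: chr9:126777001-126778000, 2.95 kb from the start of the LIM homeobox gene LHX2, at 75.1%, 85.5% and 85.3%, and chr13:100547001-100548000 at 55.3%, 65.5% and 65.6%. The last of these had 0 called CpGs, and with a minimum of 20 reads its differences fell from 10.3 and 10.4 to 3.08 and 3.65 points. With the same minimum the window near LHX2 moved the other way, from 10.4 and 10.2 to 30.3 and 20.6 points, so neither size is firm.

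The knockout lines differed most from each other at chr1:871001-872000. After it came chr20:52789001-52790000, with 87.1% in the parental library, 55.8% in KO1 and 77.1% in KO2, and the window at MARCHF1, with 89.7%, 56.6% and 76.5%. In these windows KO2 was nearer to the parental library than to KO1. The window of LRRIQ4 and LRRC34, which share a start region, differed in the other way, with the parental library in the middle at 68.4%, KO1 at 60.3% and KO2 at 76.7%, and 0 of its 53 CpGs were called in either line against the parental library. Between the lines 1 CpG was called lower in KO1. Weighted by reads the differences from parental moved from -8.13 and 8.28 to -17.6 and 4.27 points.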

How the data were processed

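For each CpG cytosine the deposited files give raw counts of total, context and methylated reads. Beside them stands the level as a fraction, the authors' quotient of methylated and context reads. Per the labels and the study's methods, 500 ng of DNA was sheared to 150 to 200 bp, captured with the TruSeq Methyl Capture EPIC kit, treated with bisulfite, amplified and sequenced on a NovaSeq. After bisulfite an unmethylated C is read as T. The submitters' processing notes name GRCh37 (hg19). For the processing steps the study's methods point to a previous article, not used here. The aligner, caller, filters and handling of PCR duplicates are not given in the sources used here, so reads may not be independent molecules.

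Reads of both strands were summed per CpG, and CpGs with 10 or more context reads in all 3 libraries were kept. CpG reads numbered 104702738 in parental Hep3B, 96987706 in KO1 and 133170621 in KO2. Window levels are means over CpGs, in percent, and differences are in percentage points. Each pair of libraries was compared at 2238764 CpGs by a two-sided Fisher exact test with Benjamini-Hochberg adjustment, called at an adjusted p under 0.05 and 25 points. Both were computed with purpose-written code, and p values of simulated counts were checked against scipy 1.17.1. In simulated data of the same depth, where 200 CpGs were changed by 45 points, the test called 64 of them (32%) in each line and 0 unchanged CpGs. With so few changed CpGs the adjustment is stricter than in the data, where 99848 CpGs were called lower in KO1. The simulated reads were also drawn as independent. These counts therefore do not give the sensitivity or the rate of false calls in the data. All steps ran in Python 3.11.15, numpy 2.4.6 and pandas 2.3.3.

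No annotation of GRCh37 was used. RefSeq promoters of 300 bases with 10 or more CGs (18977 of 33725 autosomal ones) were placed by the spacing of their CGs among the CpGs of the files, with at least 50% of the CGs found. A single place was found for 13908. RefSeq coordinates (GRCh38.p14) served for the order and spacing of neighbours, which left out 32 and 56, and 13820 were used. This method was chosen after the files were seen. Chromosome 8 is not reported here for gene starts.

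The members and the gene lists were chosen with earlier results of these data known. Named windows are the 5 members with the most CpGs, the 5 with the highest level, the 5 largest rises and falls in both lines (ranked by the smaller difference), the 5 that differed most between the lines, the 2 longest runs and the 3 nearest to the level threshold on each side. List members are named with up to 4 examples, or all where there are 5 or fewer. Genes outside this rule are marked as chosen after their values were seen.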

Additional observations from a re-analysis of the deposited data

How the results depend on the processing

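For 51 results, 228 values were computed under other settings. Levels that moved by less than the SD of KO1 and KO2, and counts that moved by less than 1.5 times, made up 147 of them, and 81 moved further. No level difference turned its sign. No paired analysis was possible because a single parental library cannot be matched to both knockouts. Leaving out members over 500 reads per CpG, placing promoters with 90% of their CGs and surroundings within 100 kb were chosen after the data were seen, and left their results within these limits.

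The number of members, 1213, followed the rule: 1960 with 5 reads, 548 with 20 reads, 2516 with 30 CpGs, 592 with 50 CpGs and 175 on the forward strand, where reads are few. Mean levels in parental, KO1 and KO2 were 82.1%, 76.8% and 79.1% at a level of 50%, 89.8%, 86.4% and 87.9% at 70%, and 84.5%, 79.0% and 81.3% with membership by the parental library alone. The knockout mean minus parental ran from -4.61 to -2.64 points with either line left out. The level next to members was 73.3% when weighted by reads.

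Windows called at 25 points were few and moved with each choice. With 5 reads, KO1 had 4 higher and 16 lower members, KO2 had 1 and 2, KO1 against KO2 had 1 and 1, and both lines 1 and 2. With 20 reads KO1 had 0 higher and 2 lower. Weighted by reads KO1 had 2 higher. Shifted by 500 bp, KO1 had 2 higher and 14 lower, KO2 had 1 lower, KO1 against KO2 had 2 lower and both lines 1 lower. At 10 points the counts were 6 higher and 217 lower in KO1, 4 and 60 in KO2, 2 and 35 between the lines and 3 and 58 in both, and at 50 points KO1 had 0 and 0. With either line left out, the calls for both lines ran from 0 to 1 higher and from 0 to 6 lower windows, and from 32 to 232 higher and from 502 to 3152 lower CpGs.

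CpG calls at an adjusted p under 0.01 were 9 higher and 281 lower in KO2, 43 and 402 between the lines, and 5 and 234 in both. At 10 points they were 62 and 914 in KO2, 142 higher between the lines, and 43 and 743 in both. At 50 points they were 56 and 961 in KO1, 4 and 59 in KO2, 10 and 122 between the lines, and 3 and 35 in both. Thinned to the smallest depth, they were 11 and 291 in KO2, 47 and 396 between the lines, and 10 and 230 in both. Falls outnumbered rises in each of these settings. Member CpGs had median depths of 34 reads in the parental library, 32 in KO1 and 44 in KO2. The cause of the moves was not tested.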
